A study of Homo sapiens with 4 samples.

Results

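The genes described here are 33 regulators of G2 and mitosis, read from a poly-A RNA-seq table of the human colorectal cancer line HCT116 in which the nuclear protein Ki-67 carries a degron tag. They were taken by gene symbol and are 33 of the 34826 genes in the table. The rule used none of their values, but the list was drawn up with earlier results of these data known. Both groups carry the tagged protein. The control group of 2 libraries was left untreated, and the IAA group of 2 libraries received 0.5 mM indole acetic acid (IAA), an auxin that triggers destruction of the tagged protein, for 24 h. Each sample came from 3 dishes of cells grown for 2 days. The labels do not say how many clones the line comprises, and no library of treated cells lacking the tag was analysed here, so the effects of IAA and of Ki-67 loss cannot be told apart. The samples are labelled biological replicates, with no statement of whether they came from separate days, so the p-values measure only the spread between these samples.

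Entry into mitosis is driven by cyclin-dependent kinase 1 bound to A- and B-type cyclins. Polo and Aurora kinases then build the spindle, a checkpoint holds back the anaphase-promoting complex until chromosomes are attached, and cytokinesis factors split the cell. Most of these genes are transcribed late in the cell cycle. The MuvB complex recognises a promoter element called the cell cycle genes homology region (CHR), acting as the repressor DREAM in resting and G1 cells and with B-MYB and FOXM1 as an activator in G2, while NF-Y binds CCAAT boxes close by. Their summed mRNA therefore varies with the share of cells in G2 and mitosis as well as with the share of cycling cells. Ki-67 is a widely used marker of cycling cells.

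Where 4 values are given for a gene, they are replicates 1 and 2 of the untreated control and then replicates 1 and 2 of the IAA group. The libraries held between 38733981 and 49448043 reads counted in genes. The 7 epithelial markers summed to between 4101 and 4529 TPM, a read count per base of gene, brought to the same total in every library. Blood cell markers (4 of 5 in the table) summed to 0.387 to 0.90 TPM, 4 endothelial markers to 0.464 to 0.703 TPM and 5 fibroblast markers to 13.9 to 15.2 TPM, nearly all of it COL1A1. PTPRC, the pan-leukocyte marker, was listed at 0 in 3 libraries and at 0.017 TPM in IAA replicate 2. Reads carry no molecular identifiers, and every pair of libraries differed beyond sampling noise, with a chi-square per gene of 5.75 to 15.8. The smallest value was between control replicate 2 and IAA replicate 2 and the largest between the IAA libraries, with 8.12 between the controls. MKI67, the gene of the degraded protein, had 198 and 151 TPM untreated and 174 and 149 TPM treated, -0.10 on the log2 scale (standard error 0.14), and these mRNA values do not check the removal of the protein.

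Promoter sequences were searched for both elements. A promoter sequence from RefSeq (GRCh38.p14, 250 bases before to 50 after an annotated start) was matched for 27 of the 33 genes, the others being AURKA, BIRC5, FOXM1, TPX2, TTK and UBE2C. The CHR was searched as TTTGAA or TTTAAA on both strands and the NF-Y box as CCAAT on both strands, counting a gene once if any of its starts matched. A CHR lay within 60 bases before to 40 bases after the start in 19 of 27 genes (70.4%), against 6.93% of 9830 protein-coding genes tested that had a promoter sequence. Anywhere in the window the CHR was found in 23 of 27 (85.2%, against 20.4%), CCAAT in 24 of 27 (88.9%, against 43.2%), and both in 20 of 27 (74.1%, against 8.78%). No test was made, since the genes were chosen as mitotic regulators. A match of letters is not evidence of binding.

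Shown are the starts of the 4 genes with the highest mean TPM among those with a CHR near the start, to show the letters and the spacing of the motifs. Their closeness to the start was fixed by that choice: CDC20 and TOP2A, also highly expressed, had their nearest CHR at -65 and -151. Each run covers 150 bases before to 50 bases after the start, 5′ to 3′ on the gene's strand, which is plus for all 4. Capitals mark the CHR and CCAAT letters in either orientation. The windows are chr5:69167000-69167199 (CCNB1), chr5:160421705-160421904 (PTTG1), chr10:60778328-60778527 (CDK1) and chr7:36389712-36389911 (ANLN).
CCNB1: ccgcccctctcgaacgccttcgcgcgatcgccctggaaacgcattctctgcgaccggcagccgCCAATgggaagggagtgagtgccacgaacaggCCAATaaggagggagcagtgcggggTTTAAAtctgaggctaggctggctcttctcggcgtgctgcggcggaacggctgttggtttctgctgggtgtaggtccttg
PTTG1: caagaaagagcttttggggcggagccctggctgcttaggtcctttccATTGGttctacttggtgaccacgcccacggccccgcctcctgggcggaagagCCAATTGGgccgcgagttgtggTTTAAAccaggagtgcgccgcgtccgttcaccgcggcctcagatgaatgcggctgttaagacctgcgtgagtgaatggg
CDK1: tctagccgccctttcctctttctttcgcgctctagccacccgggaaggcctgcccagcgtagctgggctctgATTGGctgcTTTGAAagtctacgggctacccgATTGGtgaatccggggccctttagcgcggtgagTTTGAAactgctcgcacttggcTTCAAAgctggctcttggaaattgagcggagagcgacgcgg
ANLN: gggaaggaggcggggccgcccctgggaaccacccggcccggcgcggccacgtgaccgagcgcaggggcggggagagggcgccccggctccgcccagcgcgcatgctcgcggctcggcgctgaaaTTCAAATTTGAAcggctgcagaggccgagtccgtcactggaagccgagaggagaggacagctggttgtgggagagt
In CCNB1 and PTTG1 the CHR began 30 and 29 bases before the start, with a CCAAT 55 and 51 bases before it. In PTTG1 that CCAAT overlapped a second one on the other strand. CDK1 held a CHR on the forward strand at -69 and at -13 and another on the reverse strand at 10. PTTG1 and CDK1 each have another annotated start that is not printed. Counted from it the CHR of PTTG1 lay at -84, and the other CDK1 promoter held CHRs at -161 and -131. ANLN held a CHR on each strand side by side, at -26 and -20, and no CCAAT letters in its 300-base window. AURKB, BUB1, CCNA2 and NEK2 had no CHR with these letters in the window, which says nothing about MuvB at those genes.

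**Figure D1:**
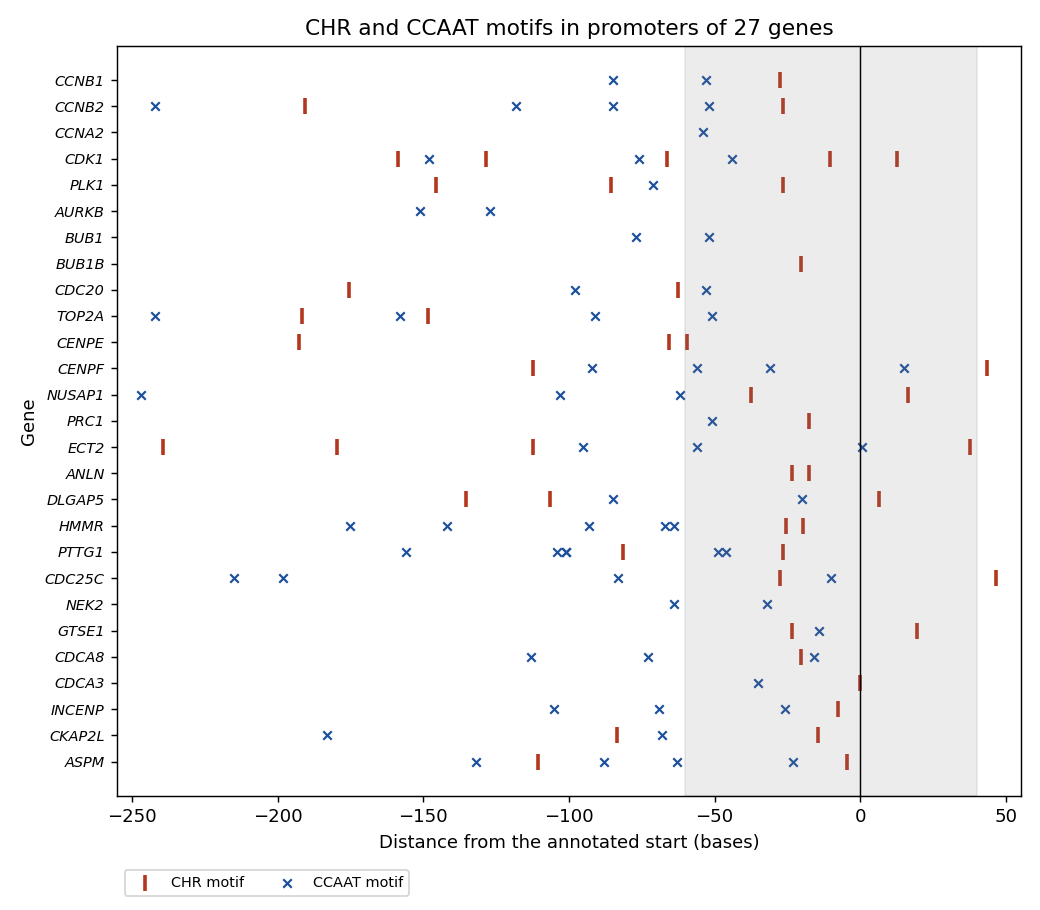
Positions of CHR (red bars) and CCAAT (blue crosses) motifs, either strand, by distance in bases from the annotated start (vertical line) for the 27 genes with a promoter sequence, with several starts of a gene drawn on its row. The grey band runs from 60 bases before to 40 bases after the start and holds a CHR in 19 of the 27 genes.

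All but 1 of these genes were abundant. Of the 33, 18 averaged over 100 TPM and 24 stood in the top 10% of the 17896 genes tested by mean TPM, with a median percentile of 93.0. UBE2C, the ubiquitin-conjugating enzyme of the anaphase-promoting complex, and CDC20, its activator, had the highest means at 356 and 354 TPM, and neither stood apart from the other. CCNB1 followed at 305 TPM, then TPX2 at 227 TPM and TOP2A at 223 TPM. Of 32 neighbouring pairs in the order of means, 26 had library ranges that overlapped, so most ranks are not resolved. CDC20 over CCNB1, CCNB1 over TPX2, CDK1 over ANLN, CCNA2 over DLGAP5, TTK over GTSE1 and CDCA3 over PRC1 were the 6 pairs with no overlap.

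**Figure D2:**
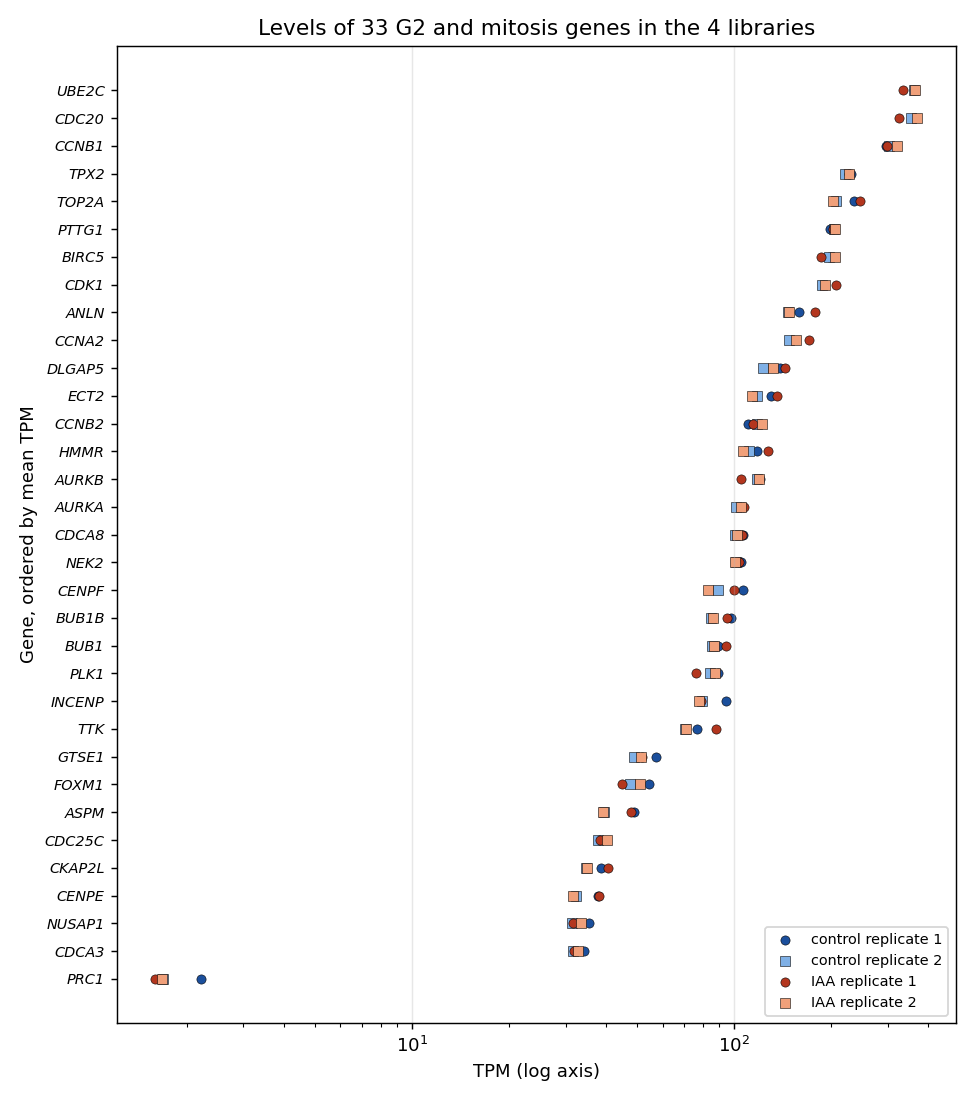
TPM of each of the 33 genes (log axis) in the 4 libraries, ordered by mean, with circles for replicate 1 and squares for replicate 2 of each group (blue control, red IAA). The points of the 32 genes above PRC1 lie between 31.5 and 371 TPM, and PRC1 lies between 1.60 and 2.22 TPM.

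PRC1 was the exception in level. It encodes the protein that crosslinks antiparallel microtubules of the central spindle, and it had 2.22 and 1.69 TPM untreated and 1.60 and 1.68 TPM treated. These values rested on 105 to 145 reads, against at least 1078 reads in each library for every other gene here. In GENCODE release 29 on GRCh38 (ENSG00000198901.13, chromosome 15, 90966038 to 90995629, minus strand), 58.4% of its 5525 exon bases also belong to exons of other genes. The gene AC068831.7 on the same strand shares 3181 bases, and PRC1-AS1 on the opposite strand shares 406. AC068831.7 itself was at 2.13 to 3.04 TPM and PRC1-AS1 at 4.60 to 9.45 TPM. NUSAP1, a microtubule-binding spindle protein (ENSG00000137804.12, chromosome 15, 41332694 to 41381050, plus strand), shares 62.2% of its exon bases with AC087721.2, a gene that was not analysed here. How reads in shared exons were assigned is not given in the sources used here, and the part of this sharing in either level was not tested. Of the other genes, 9 share between 1.30% and 15.9% of their exon bases and 22 share none.

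None of the 33 genes rose or fell in IAA by the test used, limma on log2(TPM + 1) with p-values adjusted over 17896 genes. No gene passed at an adjusted p of 0.05 in either direction, 0% of those tested higher and 0% lower, and the smallest adjusted p over all genes was 0.381. By limma voom on reads recovered from the TPM values 0 of the 33 were called, against 1 gene higher (0.00559%) and 0 lower (0%) over the table. At an unadjusted p under 0.05 the count was 0 of 33, against 742 genes or 4.15% of all tested, the smallest p among the 33 being 0.168 for CCNA2. The log2 fold changes of the 33 ran from -0.16 for PRC1 to 0.12 for CCNA2, 17 positive and 16 negative. Over all genes tested 7959 were positive and 9937 negative. The median of the 33 was 0.0038, against -0.017 for all genes tested.

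The intervals give the size of difference still compatible with these libraries. For 32 of the 33 the 95% interval of the difference lay within 1.5-fold in either direction, against 69.5% of all genes tested. The median standard error was 0.090 over the 33 and 0.127 over all genes tested, many of them less abundant. Genes of like level were not compared. Leaving PRC1 aside, the bounds ran from a 0.752-fold to a 1.31-fold level in IAA. PRC1 had the widest interval, from -0.69 to 0.37 on the log2 scale. For 24 of 33 the difference between the groups was smaller than the gap between the controls, against 60.3% of all genes. The summed TPM of the 33 was 4223 and 4026 in control replicates 1 and 2 and 4184 and 4106 in IAA replicates 1 and 2, so both IAA libraries lay between the controls. Shifts in the share of cells in G2 and mitosis and in the RNA of these genes per cell cannot be told apart in bulk samples.

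**Figure D3:**
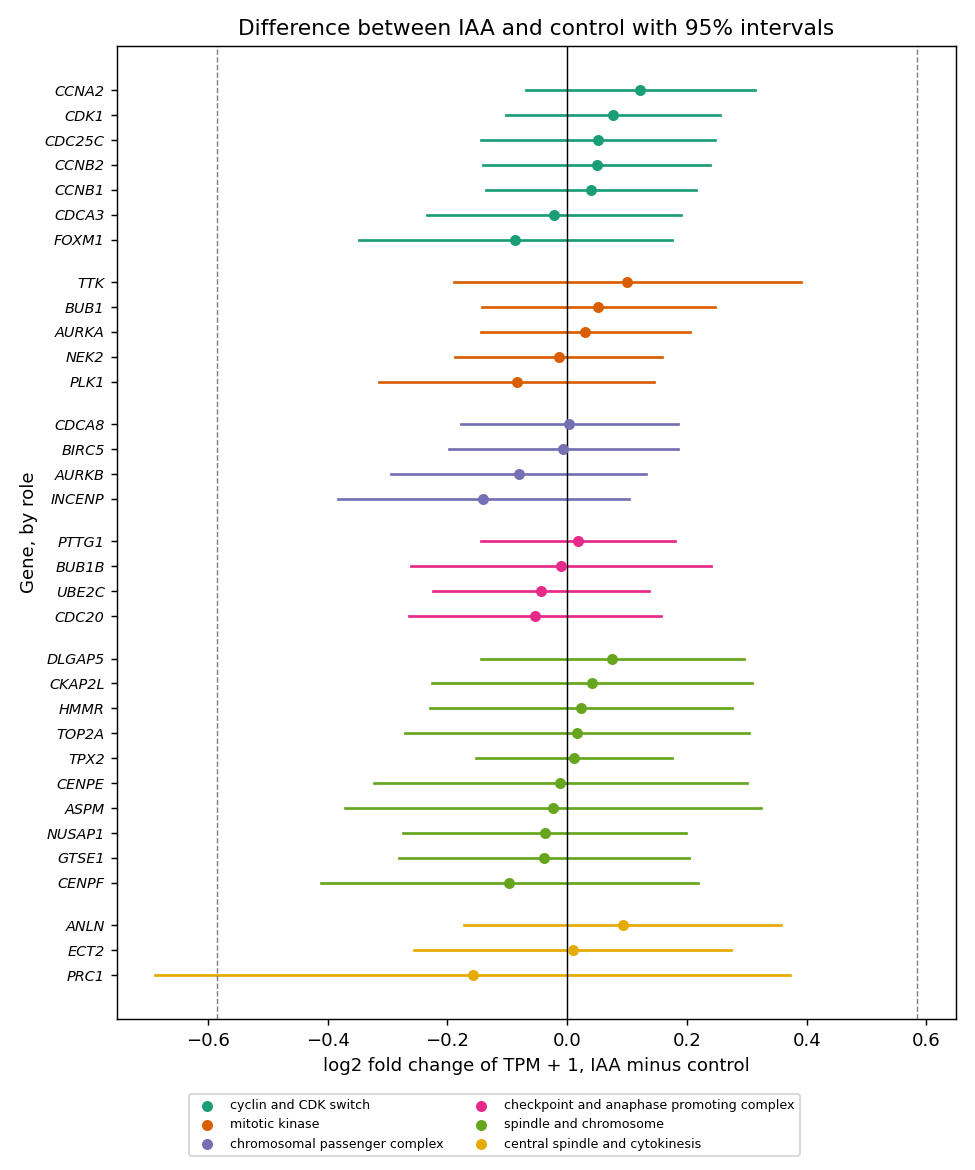
Log2 fold change of TPM + 1, IAA minus control, with 95% limma intervals for the 33 genes grouped by role, dashed lines at 1.5-fold in either direction. All intervals cross 0, and PRC1 alone reaches past a dashed line.

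In 5 genes the groups did not overlap. The treated libraries were both above the controls for CCNA2, CDK1 and CDC25C, 3 of 33 against 11.8% of all genes tested, and below both controls for INCENP and PRC1, 2 of 33 against 17.7%. These shares do not exceed the background, and none of the 5 passed the test.

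Among the cyclins and the switch around CDK1, 5 of 7 had positive fold changes. CCNA2 encodes cyclin A2, the cyclin of S phase and G2 (ENSG00000145386.9, chromosome 4, 121816444 to 121823933, minus strand). It had 151 and 149 TPM untreated and 171 and 156 TPM treated, which is 0.12 on the log2 scale (standard error 0.08, limma adjusted p = 0.999). IAA replicate 1 stood farthest from the controls, with the other treated library between. CDK1, the mitotic kinase itself (ENSG00000170312.15, chromosome 10, 60778331 to 60794852, plus strand), had 189 and 188 TPM untreated and 207 and 192 TPM treated. CDC25C, the phosphatase that removes inhibitory phosphates from CDK1 (ENSG00000158402.19, chromosome 5, 138285265 to 138338355, minus strand), had 38.2 and 37.8 TPM against 38.5 and 40.3 TPM, where the nearest libraries of the groups almost touch. CCNA2 and CDC25C share 9.08% and 8.78% of their exon bases with genes on the opposite strand.

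The B-type cyclins, which activate CDK1 at mitotic entry, did not separate the groups. CCNB1 had 297 and 304 TPM untreated and 298 and 319.8 TPM treated. CCNB2 had 111 and 118 TPM against 114 and 122 TPM. In both genes replicate 2 of each group was the higher, as in 3 of the 33 in all. FOXM1, the transcription factor that activates many of the others in G2, had 54.5 and 47.7 TPM untreated and 44.9 and 51.1 TPM treated, with IAA replicate 1 lowest and a fold change of -0.09 on the log2 scale. CDCA3, whose frog counterpart promotes destruction of the CDK1 inhibitor Wee1, stayed between 31.6 and 34.2 TPM. As a sum over the 7 genes, the controls had 875 TPM each and the IAA libraries 906 and 913 TPM. The sum was not tested, and CCNB1, its largest part, overlapped between the groups.

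The mitotic kinases gave 3 positive and 2 negative fold changes. PLK1, the Polo kinase of centrosome maturation and mitotic exit, had 88.9 and 84.2 TPM untreated and 76.0 and 87.5 TPM treated. TTK, the kinase that starts spindle checkpoint signalling, had 76.7 and 70.4 TPM against 87.7 and 70.9 TPM. It was highest in IAA replicate 1, where PLK1 was lowest. AURKA, the spindle pole kinase, lay between 102 and 107 TPM in the 4 libraries. NEK2, which parts the centrosomes, spanned 101 to 105 TPM, and BUB1, a checkpoint kinase at kinetochores, 85.5 to 94.3 TPM. The kinases summed to 466 and 443 TPM untreated and 469 and 451 TPM treated, so both libraries numbered 1 were above both numbered 2.

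The chromosomal passenger complex, which corrects wrong attachments and steers cytokinesis, had 3 of 4 genes with negative fold changes. All 4 have GC content above 50%, where 27.8% of 5893 protein-coding genes had positive fold changes. INCENP, its scaffold (ENSG00000149503.12, chromosome 11, 62123973 to 62153163, plus strand), had 94.4 and 79.7 TPM untreated and 79.2 and 78.1 TPM treated. On the log2 scale it differed by -0.14 (standard error 0.10, interval -0.38 to 0.10, limma adjusted p = 0.999). The fold change rested on control replicate 1, since the other control lay within 2 TPM of both IAA libraries. Without control replicate 1 it was -0.02. AURKB, the catalytic subunit, had 121 and 118 TPM untreated and 106 and 120.0 TPM treated, so that IAA replicate 1 alone was low. BIRC5, or survivin, had 197 TPM in both controls and 186 and 206 TPM in the IAA libraries, one on either side. CDCA8, or borealin, lay between 101 and 107 TPM with a log2 fold change of 0.0038. The sum of the 4 genes was lowest in IAA replicate 1, at 477 TPM, and 495 to 519 TPM in the other libraries.

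Among 4 checkpoint and anaphase-promoting complex genes, CDC20 and UBE2C had the IAA libraries on either side of the controls. CDC20 had 365 and 355 TPM untreated and 325 and 371 TPM treated. UBE2C had 361 TPM in both controls and 336 and 366 TPM in the IAA libraries. IAA replicate 1 was the one below the controls in both genes. BUB1B, the checkpoint pseudokinase BUBR1 that holds CDC20 inactive, had 98.1 and 84.7 TPM against 95.4 and 85.9 TPM, following the replicate number rather than the treatment. PTTG1, or securin, the inhibitor of separase whose promoter is printed above, was flat at 199 and 204 TPM against 203 and 205 TPM. Its log2 fold change of 0.018 had an interval from -0.14 to 0.18. The 4 genes summed to 1024 and 1005 TPM untreated and 959 and 1028 TPM treated, with IAA replicate 1 lowest again.

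Spindle and chromosome genes divided evenly, 5 positive and 5 negative, between -0.10 and 0.08. TOP2A, which untangles sister chromatids, had 236 and 207 TPM untreated and 247 and 203 TPM treated. ASPM, a spindle pole protein, had 49.0 and 39.6 TPM against 47.9 and 39.1 TPM. CENPF, a large kinetochore and nuclear envelope protein, had 107 and 89.1 TPM against 100.1 and 82.9 TPM, and CENPE, a kinetochore motor that itself belongs to the kinesin family, had 37.9 and 32.3 TPM against 38.0 and 31.6 TPM. In these 4 genes the library numbered 1 exceeded the library numbered 2 in both groups, by more than the groups differed. TPX2, the activator of Aurora A on spindle microtubules, was nearly constant at 222 to 230.1 TPM. DLGAP5, which stabilises kinetochore fibres, ran from 123 to 144 TPM, and HMMR, a spindle assembly factor, from 107 to 127 TPM. GTSE1, a microtubule regulator, lay between 48.9 and 57.3 TPM and CKAP2L, a spindle protein, between 34.6 and 40.7 TPM. NUSAP1 had 35.5 and 31.5 TPM untreated and 31.6 and 33.5 TPM in the IAA libraries. The 10 genes summed to 1048 and 940.1 TPM untreated and 1056 and 943 TPM treated, so the sums parted by replicate number.

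The cytokinesis factors ECT2 and ANLN tracked the libraries in the same way. ECT2, the exchange factor that activates RhoA at the cell equator, had 130.1 and 118 TPM untreated and 136 and 114 TPM treated. ANLN, the anillin scaffold of the contractile ring, had 159 and 147 TPM against 179 and 149 TPM. In both, IAA replicate 1 was the highest of the 4 libraries. PRC1, given above, differed by -0.16 on the log2 scale (standard error 0.22).

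Among these genes, the differences between libraries of one group went with gene length and GC content. Over the 33 genes the log2 gap between control replicates 1 and 2 had a Pearson correlation of 0.73 with log2 gene length, and over 12450 protein-coding genes it was 0.37. Over all 17889 genes tested that had a GC value it was 0.11, and for the gap between the IAA libraries it was 0.62 over the 33 genes, 0.37 over protein-coding genes and -0.041 over all genes. The 6 genes longer than 6000 bases had control gaps of 0.059 to 0.30 and IAA gaps of 0.12 to 0.28, all toward replicate 1. The 6 genes shorter than 2600 bases had control gaps of -0.035 to 0.078 and IAA gaps of -0.19 to 0.054. Genes share their libraries and are not independent points, so these values are descriptions without a p.

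GC content ordered the IAA libraries more than the controls. The correlation of the gap between IAA replicates 1 and 2 with GC content of the longest transcript was -0.79 over the 33 genes, -0.52 over protein-coding genes and -0.22 over all genes. For the gap between the controls these values were -0.14, -0.028 and 0.020. All 12 genes with GC below 42% were higher in IAA replicate 1 than in IAA replicate 2, by 0.039 to 0.30 on the log2 scale, as were 88.7% of the 3023 protein-coding genes below that value. Of the 9 genes above 50%, 3 were higher in IAA replicate 1, as were 34.5% of 5893 protein-coding genes. The fold change between IAA and control also went with GC content, with a correlation of -0.58 over the 33 genes, -0.33 over protein-coding genes and -0.12 over all genes. CDK1 has 37.0% GC, CCNA2 42.1% and INCENP 59.6%, the highest of the set.

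With per-library trends of GC content and length removed, an alternative added after the data were seen, the fold changes of the 33 ran from -0.14 to 0.087 and their correlation with GC content was -0.19. CDK1 then had 0.027 and INCENP -0.078, and the groups overlapped for both. CCNA2 at 0.087 and CDC25C at 0.053 were still above both controls in both IAA libraries. Under this alternative BUB1 was also above, and AURKB, CENPF, NEK2, PRC1 and UBE2C were below both controls, 3 above and 5 below of 33, against 17% above and 18.5% below of the 17889 genes with a GC value. None of the 33 passed (smallest limma adjusted p = 0.873).

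**Figure D4:**
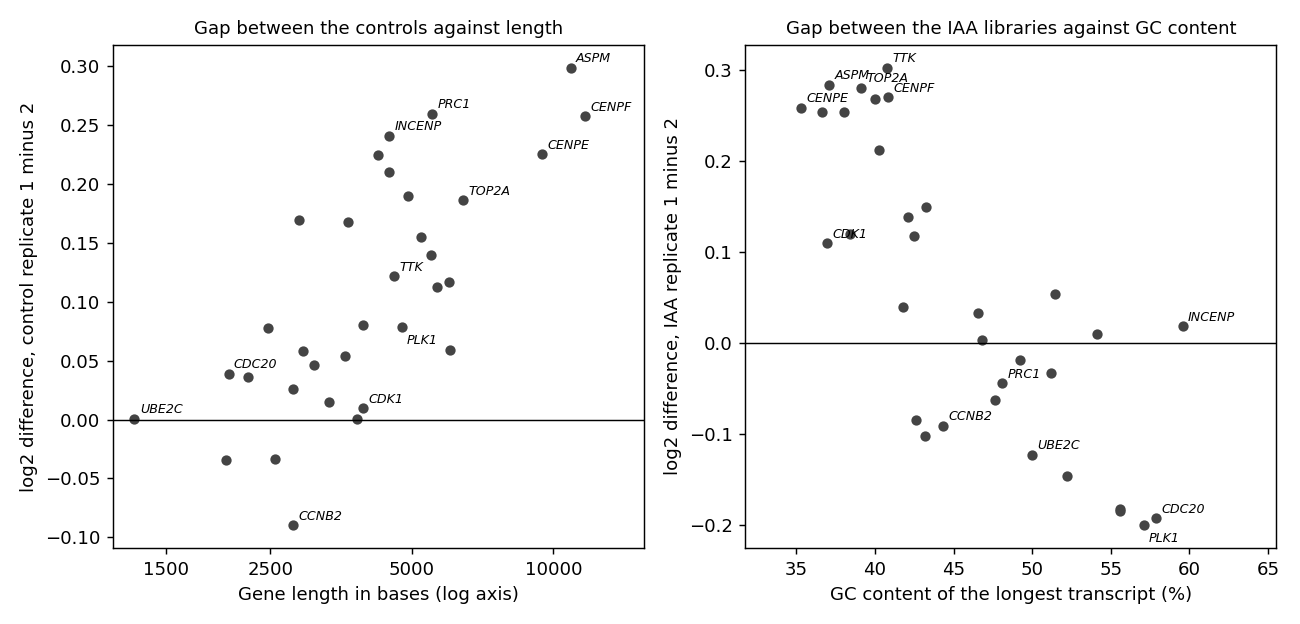
Left, log2 difference between control replicates 1 and 2 against gene length (log axis) for the 33 genes, lowest for CCNB2 at -0.090 and highest for ASPM at 0.30. Right, log2 difference between IAA replicates 1 and 2 against GC content of the longest transcript, from TTK at 0.30 down to PLK1 at -0.20.

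None of the 33 genes had its highest value in control replicate 2, where 10.2% of all genes tested peaked, and 15 had their lowest value there, against 26.1% of all genes. Control replicate 1 was highest for 14 genes and IAA replicate 1 for 12, against 38.7% and 34.4% of all genes. The library numbered 1 was the higher in both groups for 20 of 33 genes (60.6%), against 48.4% of protein-coding genes.

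Partners of these genes in the same pathways, 74 genes in 7 lists, were read from the same fit. All 74 were measured, 0 passed in either direction, 31 had positive and 43 negative fold changes, and the median was -0.010. Of all genes tested, 7959 had positive and 9937 negative fold changes. The treated libraries were both higher than the controls for 5 of 74 and both lower for 5 of 74, against 11.8% and 17.7% of all genes tested. The list medians ran from -0.047 for the MuvB and DREAM subunits, of which 8 of 10 were negative, to 0.019 for the spindle checkpoint partners.

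Among entry switch partners, PKMYT1, an inhibitory kinase of CDK1, had 26.6 and 26.2 TPM untreated and 21.4 and 25.5 TPM treated, below both. BORA, which lets Aurora A activate PLK1, had 46.8 and 41.9 TPM against 49.9 and 43.1 TPM. E2F4, the DREAM transcription factor that keeps these promoters silent in G1, had 79.4 and 78.9 TPM against 71.8 and 77.4 TPM, and the pocket protein gene RBL1 had 12.1 and 10.4 TPM against 13.4 and 11.1 TPM. Of these, PKMYT1 and E2F4 did not overlap between groups, and IAA replicate 1 was the farthest library in both.

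In the checkpoint and the anaphase-promoting complex, ZW10, a kinetochore recruiter of dynein, had 30.7 and 29.8 TPM against 36.6 and 30.7 TPM. MAD1L1, which presents MAD2 at kinetochores, had 12.4 and 11.4 TPM against 10.4 and 11.6 TPM. The small subunits ANAPC13 and CDC26 lay on opposite sides, with 37.2 and 37.5 TPM against 43.4 and 38.9 TPM for ANAPC13 and 47.3 and 41.8 TPM against 39.3 and 41.7 TPM for CDC26. ZW10, ANAPC13 and CDC26 did not overlap between groups, and none of these genes passed.

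The groups overlapped for all 27 cohesion, centrosome and central spindle partners, as they did for 70.5% of all genes tested. SGO2, a protector of centromeric cohesion, had 49.0 and 46.1 TPM untreated and 54.8 and 44.4 TPM treated, and CDCA5, or sororin, had 64.6 and 61.8 TPM against 52.9 and 63.7 TPM. NEDD1, which brings gamma-tubulin to centrosomes, had 35.8 and 33.9 TPM against 40.8 and 35.0 TPM, and PCNT, the pericentrin scaffold, 26.7 and 21.1 TPM against 21.4 and 19.5 TPM. KIF23, a motor of the central spindle, had 68.7 and 65.4 TPM against 74.0 and 68.5 TPM, and the citron kinase gene CIT 20.2 and 16.7 TPM against 17.6 and 15.9 TPM. PCNT had the lowest fold change of the 74 genes at -0.21, with a standard error of 0.13 (limma adjusted p = 0.999).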

How the data were processed

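RNA-seq libraries of 2 control and 2 IAA samples were used, grouped by their labels. The authors deposited TPM values per gene, without pooling replicates, and per the submitters' processing notes the tools named are featureCounts 1.5.2 and DESeq2 1.20.0 with builds hg38 and GRCh38.p12; no source used here gives their roles, the aligner or the use of strand. TPM times the deposited gene length, divided by a constant fitted in each library from its lowest value upward, gave whole reads for 100.0% of genes within a relative tolerance of 1e-06. IAA was compared with control by limma 3.58.1 in R 4.3.3 (lmFit, eBayes with trend) on log2(TPM + 1). A gene was tested if 2 or more libraries had 1 TPM or more, which left 17896, with Benjamini-Hochberg adjustment over all of them and a threshold of 0.05. This log2(TPM + 1) scale understates changes of low genes. The design has 2 residual degrees of freedom, and an exact permutation test of 2 against 2 libraries cannot go below p = 0.333. The code was tested on simulated data. The genes, partner lists and naming rule (all 33 genes, and the smallest p in each direction per partner list) were chosen with earlier results of these data known. Gene positions are from GENCODE release 29, and promoters from RefSeq. GC content was computed from the longest GENCODE transcript of each gene. Alternatives were another pseudocount and other filters, rescalings, protein-coding genes alone, voom, a replicate block, removal of GC and length trends, and leaving out each library.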

Additional observations from a re-analysis of the deposited data

How the results depend on the processing

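None of the 33 genes was called under any alternative run. Over all genes, limma on protein-coding genes alone called 12 higher and 25 lower, with an infinite prior degrees of freedom, and voom called 1 higher. With 1 library left out, between 0 and 534 genes were called higher and between 0 and 424 lower: 72 higher with 221 lower when IAA replicate 1 was dropped, 534 with 424 when IAA replicate 2 was, and 0 when either control was. The remaining single library of a group is there taken to vary as the other group does. The median of the 33 stayed between -0.037 and 0.047.

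Signs of these small fold changes were not stable. They turned for 25 of the 33 when a library was left out, and held for 8, including CCNA2, CDK1, CDC25C, INCENP and PRC1. In these named genes the groups did not overlap, so leaving out a library could not turn the sign. The log2 fold changes across the 4 left-out libraries were, on the log2 scale, CCNB1 from -0.011 to 0.090, PLK1 from -0.18 to 0.016, AURKB from -0.17 to 0.011, BUB1 from -0.0068 to 0.11, BUB1B from -0.11 to 0.095, CDC20 from -0.15 to 0.043, TTK from -0.051 to 0.25, TOP2A from -0.12 to 0.16, CENPE from -0.14 to 0.12, CENPF from -0.23 to 0.038, NUSAP1 from -0.12 to 0.047, TPX2 from -0.016 to 0.038, BIRC5 from -0.080 to 0.066, ECT2 from -0.12 to 0.14, ANLN from -0.042 to 0.23, DLGAP5 from -0.0081 to 0.16, HMMR from -0.10 to 0.15, UBE2C from -0.11 to 0.017, NEK2 from -0.037 to 0.0090, FOXM1 from -0.18 to 0.0085, GTSE1 from -0.15 to 0.074, CDCA8 from -0.035 to 0.043, CDCA3 from -0.079 to 0.034, CKAP2L from -0.065 to 0.15, ASPM from -0.17 to 0.13. Signs also turned with median-of-ratios rescaling (BUB1B 0.0041, CENPE 0.0021, BIRC5 0.0071), upper-quartile rescaling (BUB1B 0.0070, CENPE 0.0050, BIRC5 0.010, NEK2 0.0025), voom (BUB1B 0.0031, CENPE 0.0013, BIRC5 0.0058) and removal of GC and length trends (TOP2A -0.0093, BIRC5 0.020, ECT2 -0.025, HMMR -0.029, GTSE1 0.00014, CDCA3 0.013); the cause was not tested. Another pseudocount turned none. Running with no filter or with a minimum of 5 TPM could turn none, since a filter leaves each fold change as it was. PRC1 has no value at 5 TPM.

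Same-numbered samples share only a number by the labels. The log2 gap between replicates 1 and 2 correlated between control and IAA with r = 0.46 over the 33 genes, 0.22 over protein-coding genes and -0.069 over all genes tested. The fit with a replicate block called 0 genes higher and 0 lower. In this balanced design the block cannot move a fold change, so the median of the 33 was 0.0038 as without it. The depth limits PRC1 most, with 105 to 145 reads per library, and the next lowest of the 33 had 1078 reads in a library.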
